A study of Mus musculus with 16 samples.

Results

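The 29 genes described here encode proteins of the small (40S) subunit of the cytosolic ribosome. They were chosen by name, as protein-coding genes with a symbol of Rps and a number, together with Rpsa and Fau. Pseudogenes, the Rps6k kinases, Rps19bp1 and the mitochondrial Mrps genes were left out. The rule used no measured value, but the group was chosen with earlier results of these data known. They are 29 of 48158 genes with a deposited value, and all 29 were among the 11790 genes tested. A further 5 protein-coding genes meet the symbol pattern, 34 in all, and are not described singly here.

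The libraries hold polyadenylated RNA of hepatocytes that were isolated in the presence of cycloheximide, a drug that halts elongating ribosomes, from FVB mice. The mice were fed either DDC (diethoxycarbonyl dihydrocollidine), a porphyrin-raising compound that injures bile ducts and hepatocytes, for 4 weeks, or a normal diet (CHOW); no genetic change is named in the labels. For each diet there were 4 RNA pools of 2 libraries each, 16 in all: cytoplasmic RNA, and RNA from the monosome (1 ribosome), light polysome (2 to 4 ribosomes) and heavy polysome (more than 5 ribosomes) parts of a sucrose gradient. Per the labels, the DDC fractions came from preparations B and C and the DDC cytoplasmic libraries from C2 and D2, while CH1_CH2 and CH3_CH4 gave the CHOW fractions, and CH1 and CH3 the CHOW cytoplasmic libraries. The labels do not say that the libraries of a group come from separate animals, and the names of the CHOW fractions read as pools, so p-values measure the spread between these samples, which may be technical. Every preparation had 1 diet, so that diet and preparation cannot be told apart.

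The small subunit binds the messenger RNA, scans it for a start codon and checks the match of codon and anticodon. It is built from 1 ribosomal RNA and a set of proteins that lie in its head or in its body and platform. Messages of ribosomal proteins carry a 5' terminal oligopyrimidine (TOP) stretch, a C at the first base followed by a run of C and T, through which mTOR and the RNA-binding protein LARP1 set how far they are loaded with ribosomes. In mammalian tissues at rest many of them sit in light particles of the gradient, and growth signals move them onto polysomes.

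The sequences around the annotated start sites of 8 members, those on which the results below turn, show how far this stretch can be seen at the RefSeq starts. Each line runs 5' to 3' on the strand of the gene from 10 bases before the start through 20 bases from it (RefSeq, GRCm38.p6), and capitals mark the longest run of C and T within the printed bases. Fau (chr19:6057937-6057966, plus strand) and Rps10 (chr17:27635225-27635254, minus) had the longest runs of the members with an entry, Rps6 (chr4:86857348-86857377, minus), Rps27 (chr3:90213629-90213658, minus) and Rps12 (chr10:23787190-23787219, minus) are shown as members with a run, and Rps3a1 (chr3:86142649-86142678, minus), Rps23 (chr13:90923112-90923141, plus) and Rps27l (chr9:66946076-66946105, plus) for their diet difference.
Fau: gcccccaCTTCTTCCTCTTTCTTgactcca
Rps10: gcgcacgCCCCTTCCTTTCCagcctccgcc
Rps6: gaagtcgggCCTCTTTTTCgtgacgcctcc
Rps27: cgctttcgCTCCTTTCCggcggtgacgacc
Rps12: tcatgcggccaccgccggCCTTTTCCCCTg
Rps3a1: gCCggaagggcgaaagagcaagggtcacgt
Rps23: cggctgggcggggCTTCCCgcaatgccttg
Rps27l: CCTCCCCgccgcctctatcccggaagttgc

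A run of at least 8 consecutive bases that were C or T, looked for on the strand of the gene from 20 bases before to 30 bases from a start, was present in 13 of the 25 members with a RefSeq start (52.0%), against 21.5% of 27025 genes. The other 4 members had no entry in the table used. Rps27l is among the 13, because its longest run in the searched bases around the printed start was 9, against 7 within the printed bases. A match is a property of these letters, and annotated starts can lie some bases off the starts used in liver.

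Values are FPKM (fragments per length of transcript and depth of library), summed over the transcripts of a gene, and differences are of log2(FPKM + 1), with the standard error (SE) and the adjusted p of limma's moderated test across all genes (Benjamini-Hochberg). A gene was called at an adjusted p under 0.05. Summed FPKM ran from 375145 in DDC cytoplasm 2 to 1386170 on CHOW heavy polysomes 1, and replicates correlated at 0.950 to 0.985 across genes. A library held 8313 to 9874 genes at 1 FPKM or more. The 4 CHOW libraries numbered 1 stand apart. They had Xist at 0.0394 to 2.44 FPKM and the Y-linked Ddx3y, Eif2s3y, Kdm5d and Uty at 0, whereas in the other 12 libraries Xist was at 0 and Eif2s3y at 4.20 to 34.5 FPKM. The labels give no sex; the first pattern is that of RNA of female mice and the second that of male mice, so that 4 of the 8 CHOW libraries may differ in sex from all DDC libraries, and counts are also given without them. Scaling every library to the same total FPKM moved the median diet difference of all genes by 0.17 in cytoplasm, 0.21 in monosomes, 0.23 on light and 0.27 on heavy polysomes, and the median of heavy polysomes against monosomes by -0.38 in either diet. Quantile normalization moved the diet medians by -0.13 in monosomes and -0.12 on heavy polysomes. Medians over the members that turned in sign, and calls that multiplied, under this or another scaling are given with the counts. The shares of all genes given beside the counts are those of the deposited scale. Hepatocyte markers were present throughout, with 6 to 8 of 8 above 0. Apoa1, an abundant liver message, was listed at 0 in the ribosome fractions of DDC and on CHOW heavy polysomes, and Serpina1c in every CHOW library. Such values can be failed estimates. Markers of other liver cells were higher with DDC: in monosomes the summed FPKM of 7 macrophage markers was 393 to 492 with DDC and 26.4 to 43.9 with CHOW, that of 7 ductal markers 217 to 315 with DDC and 20.5 to 21.9 with CHOW, and that of 7 stellate markers 104 to 155 with DDC and 10.7 to 15.8 with CHOW. In monosomes the 8 hepatocyte markers summed to 6588 to 8958 FPKM with DDC, with Apoa1 at 0. With CHOW they summed to 13499 to 14877 FPKM, with Serpina1c at 0, so the sums of the diets cover different genes. Gene by gene, 2 of 6 tested hepatocyte markers were called lower in monosomes and 0 higher (median -0.30), against 15.9% of all genes lower and 21% higher. In cytoplasm the sums overlapped, with 16213 and 9671 FPKM with DDC and 12324 and 17105 FPKM with CHOW. Epcam, Krt7, Krt19 and Spp1 of the ductal list were at 0 in both CHOW monosome libraries and above 0 in both DDC monosome libraries. Endothelial and lymphocyte markers stayed low in every library, with sums of at most 13.3 and 3.06 FPKM. The part of these cells in the values below was not tested.

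Together the 29 members made up 1.95 and 2.05% of summed FPKM in the 2 DDC cytoplasmic libraries, against 1.78 and 1.76% in CHOW. In monosomes their share was 4.58 and 2.85% with DDC and 7.26 and 7.52% with CHOW. On light polysomes it was 2.46 and 2.79% with DDC and 2.32 and 2.63% with CHOW, and on heavy polysomes 2.91 and 3.06% with DDC and 1.85 and 1.89% with CHOW. The diets thus lay farthest apart in monosomes, where CHOW was higher, and next on heavy polysomes, where DDC was higher.

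**Figure D1:**
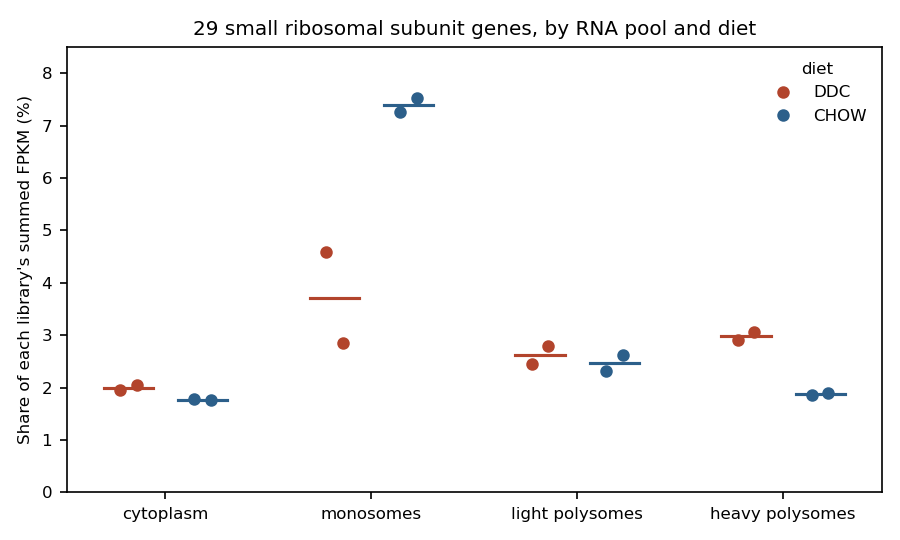
Share of each library's summed FPKM held by the 29 small subunit genes (%), by RNA pool, with DDC left of CHOW; points are libraries and bars their means (n = 2 each). In monosomes both DDC libraries (4.58 and 2.85%) lie below both CHOW libraries (7.26 and 7.52%), and on heavy polysomes both DDC libraries (2.91 and 3.06%) lie above both CHOW libraries (1.85 and 1.89%).

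Levels differed widely between the members within a pool. Per length (FPKM), group means spanned 12.8 times in DDC cytoplasm, between Rps20 at 74.3 and Rps12 at 950 FPKM, and 6.73 times in CHOW cytoplasm, between Rps20 at 95.9 and Rps24 at 645 FPKM. Rps20 had the lowest value in both pools of cytoplasm and Rps15, a head protein near the tRNA sites, the highest level of all members in each monosome and heavy polysome library. Rps15 stood at 4281 and 2907 FPKM in DDC monosomes and at 5927 and 7442 FPKM in CHOW monosomes. Many of these genes have processed pseudogenes with near-identical sequence, and how the authors' counting divided reads between copies is not given in the sources used here.

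**Figure D2:**
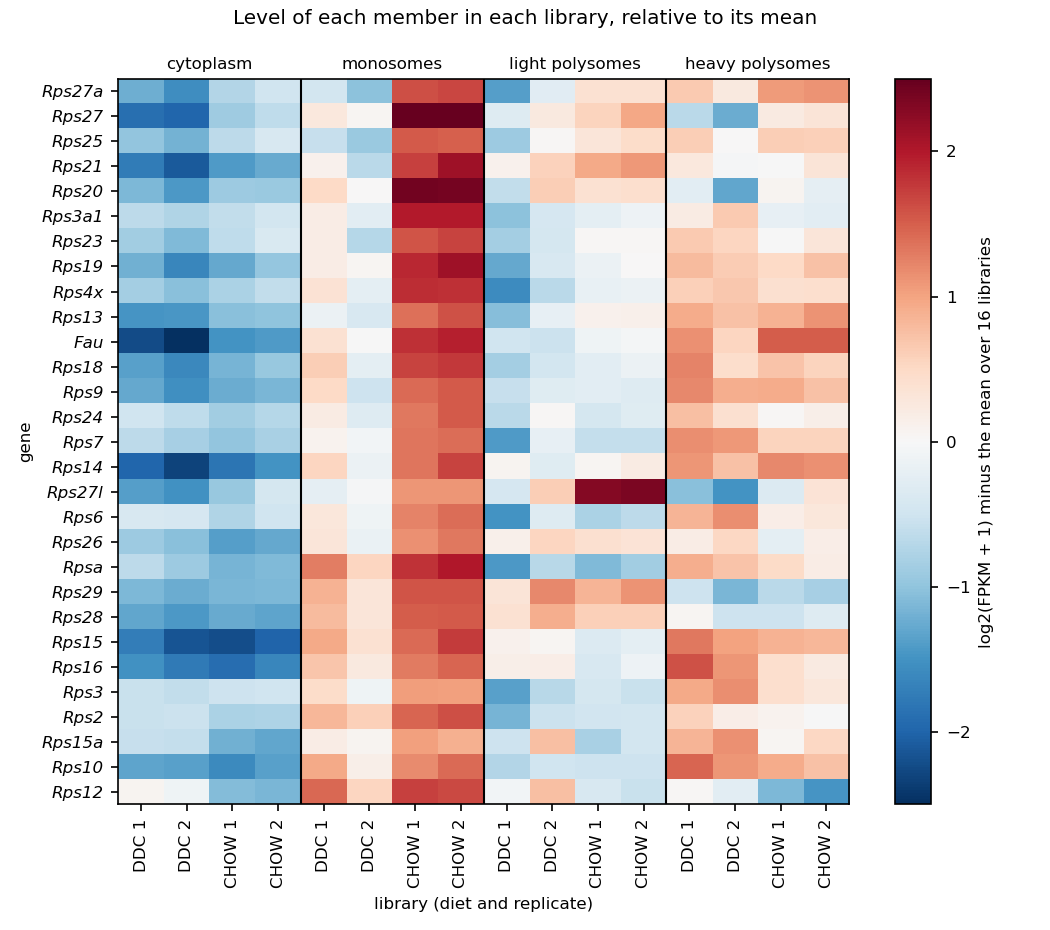
Level of each of the 29 members in each of the 16 libraries as log2(FPKM + 1) minus the member's mean over the libraries (red above, blue below), with pools from left to right, DDC left of CHOW in each, and members ordered by their diet difference in monosomes. Among the CHOW columns, those of monosomes are the reddest for 28 members, and those of light polysomes for Rps27l.

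The first question was how the diet changed the level of these messages in each pool, and the largest shift was in monosomes. There 27 of 29 members were called lower with DDC and 0 higher; 15.9% of all genes tested were called lower and 21% higher. The median difference was -1.36 over the members and 0.04 over all genes. In all 29 members both DDC libraries lay below both CHOW libraries, as did 30.7% of all genes tested. In bulk RNA, fewer cells of a type and less RNA per cell cannot be told apart.

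Rps27a, a fusion of ubiquitin with a ribosomal protein of the head, had 286 and 193 FPKM in DDC monosomes and 1210.1 and 1260.2 FPKM in CHOW monosomes, a difference of -2.39 (SE 0.33, adjusted p = 0.000262, limma). Rps27, a zinc-binding protein, had 1154 and 1001 FPKM with DDC and 5522 and 5489.7 FPKM with CHOW (-2.36, SE 0.27, adjusted p = 8.22e-05, limma). In both genes the CHOW libraries are close to each other and several times above the DDC libraries. Rps25, a head protein needed for initiation at some viral internal entry sites, had 246 and 193 FPKM with DDC and 1064 and 1039 FPKM with CHOW (-2.27, adjusted p = 0.000219, limma), and Rps21, a small protein of the body, 892 and 524 FPKM with DDC and 2737 and 3638 FPKM with CHOW (-2.21, adjusted p = 0.000221, limma). These are the 4 largest falls; the other called members fell by 0.74 (Rps10) to 2.16 (Rps20).

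The 2 members that were not called in monosomes were Rps12, at 2628 and 1406 FPKM with DDC and 3147 and 3051 FPKM with CHOW (-0.69, adjusted p = 0.114, limma), and Rps15a, at 468 and 430.4 FPKM with DDC and 836 and 762 FPKM with CHOW (-0.83, adjusted p = 0.0749, limma). Their DDC libraries also lay below their CHOW libraries. By place in the subunit, 16 of 17 members of the body and platform were called lower (median -1.47) and 11 of 12 members of the head (median -0.98). With libraries scaled to the same total FPKM 21 members were called lower (median -1.05), and with quantile normalization 18 (median -0.79), 0 higher in either; Rps12 then had a difference of 0.05 with quantile normalization. Without the 4 CHOW libraries numbered 1 the count was 13, with all 29 differences below 0, and without CHOW monosome 2 it was 17.

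**Figure D3:**
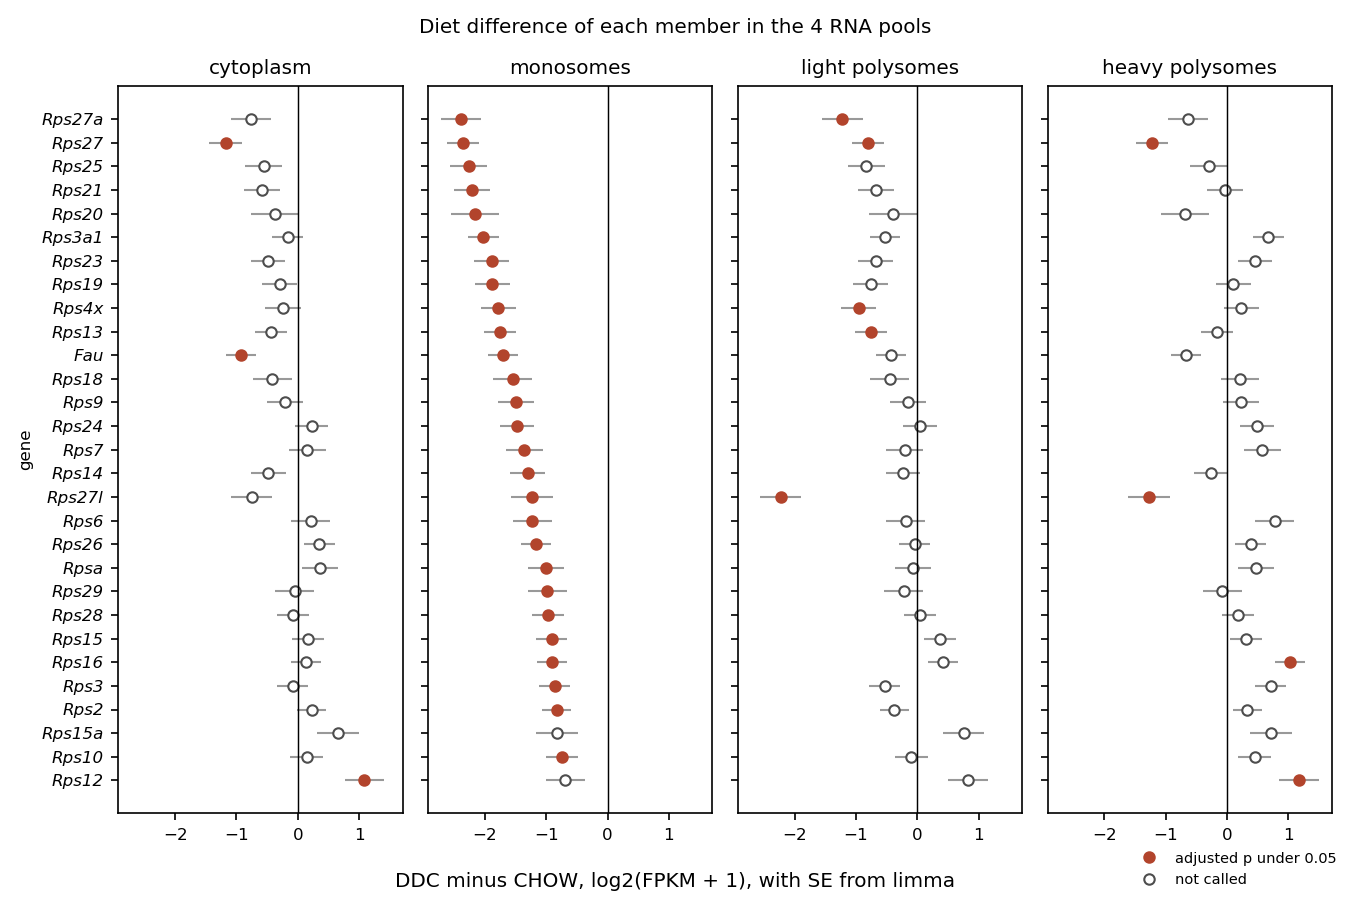
Diet difference of each member, DDC minus CHOW on the log2(FPKM + 1) scale, with SE bars from limma (2 libraries a group), in the 4 RNA pools; members are in the same order in each panel and filled points have an adjusted p under 0.05. In monosomes all 29 points lie left of 0 and 27 are filled, whereas in the other pools the points lie on both sides and 3, 5 and 4 are filled.

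On light polysomes 5 members were called lower with DDC and 0 higher, while 13.5% of all genes were called lower and 16.6% higher. The median was -0.38 over the members and 0.01 over all genes. Rps27l, a paralog of Rps27 and in human cells a target of p53, had 252 and 519.6 FPKM with DDC and 1665 and 1739 FPKM with CHOW (-2.23, SE 0.34, adjusted p = 0.000591, limma), so that both CHOW libraries were more than 3 times the higher DDC library. Rps27a fell with 149.9 and 323 FPKM in DDC and 513 and 515 FPKM in CHOW (-1.22, adjusted p = 0.015, limma). Rps4x, the X-linked member, fell with 129.7 and 242 FPKM in DDC and 339.8 and 349 FPKM in CHOW (-0.95, adjusted p = 0.0253, limma). Rps27 and Rps13, a protein of the body, fell by 0.81 (adjusted p = 0.0383) and 0.75 (adjusted p = 0.0485, limma); Rps13 had 161 and 293 FPKM with DDC and 364 and 369 FPKM with CHOW. In these 5 members the diets do not overlap, and the DDC libraries were apart from each other, with DDC light polysomes 1 the lower. In all, both DDC libraries lay below both CHOW libraries in 14 members (33.9% of all genes) and above them in 3 (36.5%). The direction over the members depended on scaling, with medians of -0.05 with equal totals and 0.09 with quantile normalization: with equal totals 4 members were called higher and 2 lower, and the same counts came from quantile normalization. The count was 3 without the filter on low values, 1 without the 4 CHOW libraries numbered 1 or without either CHOW light polysome library, 3 without either library of DDC cytoplasm, CHOW cytoplasm or CHOW monosomes or without DDC light polysomes 1, and 10 without DDC light polysomes 2.

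On heavy polysomes 2 members were called higher with DDC and 2 lower, against 13.9% of all genes higher and 10.9% lower. The median was 0.23 over the members and 0.02 over all genes. Rps12, a protein of the head, had 986 and 806 FPKM with DDC and 445 and 349 FPKM with CHOW (1.18, SE 0.32, adjusted p = 0.0193, limma). Rps16, whose tail reaches towards the peptidyl site, had 2227 and 1574 FPKM with DDC and 978 and 860.0 FPKM with CHOW (1.03, adjusted p = 0.00988, limma). In both, each DDC library was above each CHOW library. Rps27 had 606 and 409.6 FPKM with DDC and 1134 and 1203 FPKM with CHOW (-1.23, adjusted p = 0.00549, limma), and Rps27l 163 and 120.3 FPKM with DDC and 268 and 429 FPKM with CHOW (-1.27, adjusted p = 0.0169, limma), so these paralogs were called lower. The call of Rps27l was lost under either other scaling (adjusted p = 0.061 with equal totals and 0.082 with quantile normalization, limma). In 15 members both DDC libraries lay above both CHOW libraries (29.9% of all genes) and in 6 below (26.2%). Equal totals moved the median of all genes by 0.27 in this pool and quantile normalization by -0.12, so the shares of all genes hold for the deposited scale only. The count of called members depended on scaling: with equal totals 15 were called higher and 1 lower (median 0.73), with quantile normalization 14 higher and 1 lower (median 0.70). It was 9 without either DDC light polysome library, 1 without CHOW heavy polysomes 2 and 0 without the 4 CHOW libraries numbered 1. In this pool the 7 macrophage markers summed to 2256 to 3034 FPKM with DDC and 111 to 207 FPKM with CHOW, and their part in the values was not tested.

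In cytoplasmic RNA 1 member was called higher with DDC and 2 lower, against 12.7% of all genes higher and 9.68% lower, with a median of -0.16 over the members and 0.01 over all genes. Rps12 had 1006 and 893 FPKM with DDC and 453 and 439 FPKM with CHOW (1.09, SE 0.32, adjusted p = 0.0312, limma), and ranked as the most abundant member in both DDC libraries, against the sixth and seventh in CHOW. Fau, a ubiquitin-like protein fused to a protein of the body, had 192 and 158 FPKM with DDC and 325 and 339.6 FPKM with CHOW (-0.93, adjusted p = 0.0171, limma). Rps27 had 259 and 243 FPKM with DDC and 519.8 and 619 FPKM with CHOW (-1.17, adjusted p = 0.00868, limma). For these 3 the diets do not overlap. Over all members the DDC libraries lay below the CHOW libraries in 15 (36.1% of all genes) and above in 8 (38.3%). Leaving out CHOW cytoplasm 1 gave 1 called member, and leaving out CHOW cytoplasm 2, DDC cytoplasm 2 or the 4 CHOW libraries numbered 1 gave 0; quantile normalization called 5 (3 higher and 2 lower). The direction over the members turned with scaling: 11 of 29 differences were above 0 in the deposited values, 15 with equal totals (median 0.04) and 16 with quantile normalization (median 0.09).

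Rps27 was thus lower with DDC in each of the 4 pools, by 1.17 in cytoplasm, 2.36 in monosomes, 0.81 on light and 1.23 on heavy polysomes, all called. On light polysomes the call was lost under either other scaling (differences of -0.48 with equal totals and -0.36 with quantile normalization). Rps12 was called higher with DDC in cytoplasm (1.09) and on heavy polysomes (1.18), with a difference of 0.83 on light polysomes (adjusted p = 0.0723, limma) and of -0.69 in monosomes, which turned to 0.05 with quantile normalization. Rps6, the substrate of S6 kinase, gave differences of 0.21 in cytoplasm, -1.23 in monosomes (adjusted p = 0.0103, limma), -0.19 on light and 0.78 on heavy polysomes (adjusted p = 0.0986, limma), so that it was called in monosomes and not in the other pools.

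The second question was where in the gradient these messages lay. With CHOW, 28 of 29 members had their highest mean level in monosomes, and Rps27l had it on light polysomes. With DDC, 20 members were highest on heavy polysomes, 4 on light polysomes (Rps21, Rps27l, Rps28 and Rps29) and 5 in monosomes (Rps2, Rps12, Rps20, Rps27 and Rpsa). These orders are of the deposited values and, for DDC, changed with scaling, as the calls below show. The share of all genes highest in each pool was not counted.

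With CHOW, 22 members were called lower on heavy polysomes than in monosomes and 0 higher, with 21.1% of all genes called lower and 23.7% higher. The median was -1.10 over the members and 0.00 over all genes, and all 29 differences were below 0. The gap was widest for Rps12, with 445 and 349 FPKM on heavy polysomes and 3147 and 3051 FPKM in monosomes (-2.97, SE 0.32, adjusted p = 3.21e-05, limma), and for Rps20, a head protein, with 190.3 and 154 FPKM on heavy polysomes and 972 and 961 FPKM in monosomes (-2.49, adjusted p = 0.000349, limma). It was narrowest for Rps14, a platform protein, with 1815 and 1734 FPKM on heavy polysomes and 1972 and 2528 FPKM in monosomes (-0.33, adjusted p = 0.369, limma), and for Fau, with 2614 and 2594 FPKM on heavy polysomes and 3219 and 3529.6 FPKM in monosomes (-0.37, adjusted p = 0.238, limma). Under either other scaling all 29 members were called lower (medians -1.91 with equal totals and -1.86 with quantile normalization). Without the 4 CHOW libraries numbered 1 the count was 9, with all 29 still below 0.

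With DDC, 9 members were called higher on heavy polysomes than in monosomes and 5 lower, against 18.2% of all genes higher and 14.5% lower, with a median of 0.63 over the members. Rps27a had 618 and 469 FPKM on heavy polysomes and 286 and 193 FPKM in monosomes (1.19, SE 0.33, adjusted p = 0.0156, limma), and Rps7, a protein of the body, 574 and 543 FPKM on heavy polysomes and 271 and 243 FPKM in monosomes (adjusted p = 0.015, limma). At the other end Rps29, the shortest member and a zinc-binding protein of the head, had 768 and 492 FPKM on heavy polysomes and 1991 and 1345 FPKM in monosomes (-1.41, adjusted p = 0.00551, limma), and Rps27l 163 and 120.3 FPKM on heavy polysomes and 289 and 334 FPKM in monosomes (-1.14, adjusted p = 0.0228, limma). The rises rested on the deposited scale: with equal totals 0 members were called higher and 7 lower (median 0.02), and with quantile normalization 0 higher and 8 lower (median -0.07). Without DDC monosome 2 the calls were 1 higher and 4 lower, without DDC heavy polysomes 1 they were 2 higher and 6 lower, without DDC heavy polysomes 2 they were 8 higher and 1 lower, and without the 4 CHOW libraries numbered 1 they were 1 higher and 2 lower.

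The ratio of heavy polysome to monosome FPKM within a preparation shows the members' placement without averaging. Its median over the members was 1.41 and 1.66 in the DDC preparations and 0.412 and 0.428 in the CHOW preparations. It was above 1 for 20 and 22 members with DDC and for 0 and 0 with CHOW in the deposited values. Where the ratio crosses 1 depends on how the libraries are scaled, and the share of all genes above 1 was not counted. In 28 of 29 members both DDC ratios were above both CHOW ratios, which held for 21.7% of the tested genes above 0 in all of these libraries. The member that did not was Rps27l, with 0.565 and 0.361 in DDC and 0.367 and 0.588 in CHOW. For light polysomes over monosomes the same held in 25 members (19.9% of such genes) and for heavy over light polysomes in 13 (20.5%).

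**Figure D4:**
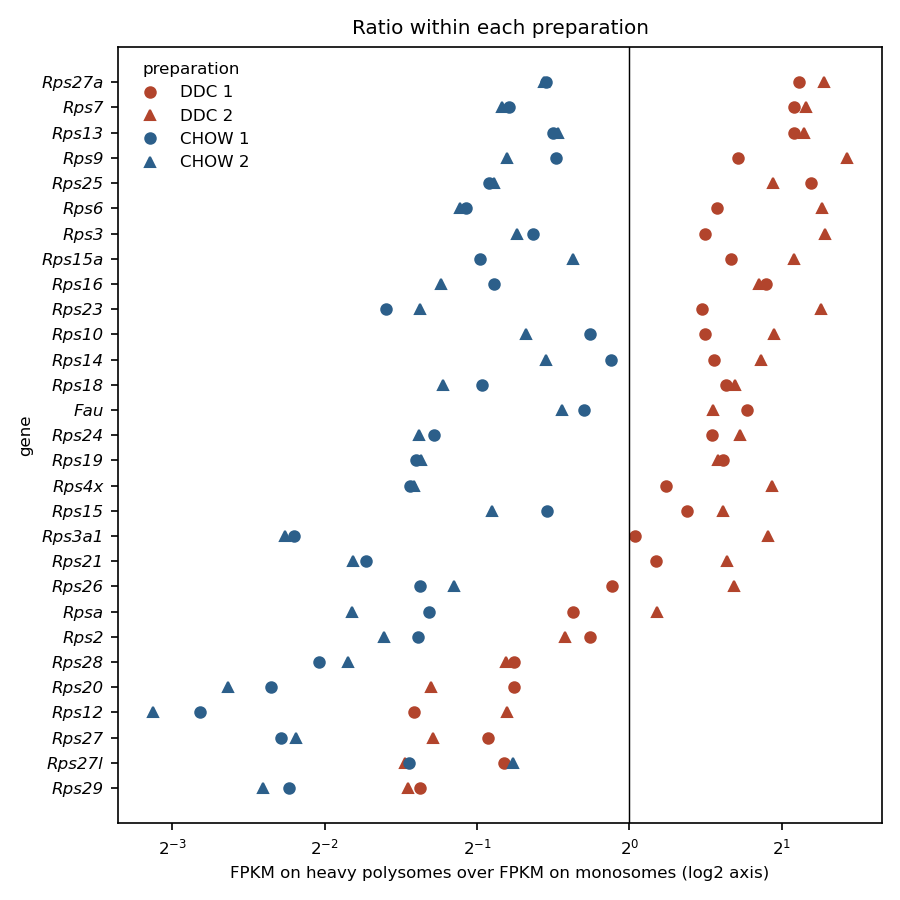
Ratio of heavy polysome to monosome FPKM (log2 axis) of each member in each preparation, ordered by its DDC mean; red marks are DDC, blue marks CHOW, circles preparation 1 and triangles preparation 2 of a diet. The DDC marks lie right of the CHOW marks in 28 of 29 members. All CHOW marks lie left of 1, a cut that depends on how the libraries are scaled.

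The difference between the diets in heavy polysomes against monosomes was tested as an interaction in the same fit. It was called for 12 of 29 members, all in the direction of relatively more on heavy polysomes with DDC, when 0.996% of all genes tested were called in that direction and 0.902% in the other. The median was 1.60 over the members and -0.03 over all genes, and 28 of 29 differences were above 0. The median kept its sign under both other scalings: 22 members were called with equal totals (median 1.79) and 17 with quantile normalization (median 1.52), 0 in the opposite direction in either.

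Rps3a1, which lines the exit side of the platform, had the largest diet difference, 2.70 (SE 0.35, adjusted p = 0.0133, limma). It had 414 and 561 FPKM on heavy polysomes and 404 and 299 FPKM in monosomes with DDC, and 309 and 296 FPKM on heavy polysomes and 1417 and 1418 FPKM in monosomes with CHOW. Its heavy over monosome ratio was 1.02 and 1.88 in the DDC preparations and 0.218 and 0.209 in the CHOW preparations, and at its RefSeq start, printed above, no run of 8 C or T was found. Rps23, a protein of the decoding centre, had ratios of 1.39 and 2.39 with DDC and 0.331 and 0.386 with CHOW (2.35, SE 0.40, adjusted p = 0.0199, limma). Rps21 had 1.13 and 1.56 with DDC and 0.301 and 0.284 with CHOW (2.18, adjusted p = 0.0258, limma). In these members the 2 CHOW preparations differed by little and the DDC preparations more, with preparation 2 the higher.

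Rps4x had ratios of 1.18 and 1.91 with DDC and 0.368 and 0.376 with CHOW (2.01, adjusted p = 0.0304, limma), and Rps6 1.49 and 2.41 with DDC and 0.476 and 0.462 with CHOW (2.01, adjusted p = 0.0462, limma). Rps24, one of the members mutated in human Diamond-Blackfan anaemia, had 1.46 and 1.66 with DDC and 0.412 and 0.383 with CHOW (1.97, adjusted p = 0.0278, limma). Rps19, another of these, Rps25, Rps16, Rps7, Rps3 and Rps26 made up the called members, with differences of 1.55 to 1.98. Rps3 forms part of the entry site of the messenger RNA and Rps26 part of its exit channel. The uncalled members other than Rps27l had differences of 0.91 (Rps29) to 1.86 (Rps12), and adjusted p of 0.0504 (Rps13) to 0.282 (Rps29, limma). An unadjusted p under 0.05 (limma) was found for 27 of 29 members and for 2378 of 11746 genes tested. Members were also grouped by the C or T run defined above, which could lie anywhere from 20 bases before to 30 bases from a RefSeq start. Members with such a run had a median of 1.71 (13 members) and those without one 1.76 (12 members). In monosomes the diet difference had medians of -1.36 and -1.38 in the same order. The grouping did not ask for a run that begins at the first base, so TOP messages were not compared with others.

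The number of called members in this interaction moved with the fit. With the preparation as a replicate block within each diet it was 19, all higher with DDC. It was 7 without the filter on low values and 0 without the 4 CHOW libraries numbered 1, where CHOW has 1 library per pool, assumed to vary like the other groups. The median was then 1.73 and 28 of 29 were above 0. It was 1 without CHOW monosome 2, 2 without DDC monosome 2 or CHOW heavy polysomes 1, 3 without CHOW heavy polysomes 2, 4 without either library of CHOW cytoplasm or CHOW light polysomes, 6 without DDC heavy polysomes 1, and 7 without either DDC cytoplasm library, CHOW monosome 1 or DDC heavy polysomes 2. Over the 23 alternatives run on the 29 members, the median stayed between 1.33 and 1.85 and 28 or 29 members were above 0. Against cytoplasm instead of monosomes, the diet difference of heavy polysomes was called by limma for 0 of 29 members, with a median of 0.26 over the members. Of all genes tested, 0.0596% were called higher and 0.0426% lower. An unadjusted p under 0.05 (limma) was found for 4 of 29 members and for 1387 of 11747 genes tested.

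Within polysomes, the members divided in part by size. With DDC, 19 members were called higher on heavy than on light polysomes and 4 lower, against 12.1% of all genes higher and 10.5% lower; with CHOW, 10 were called higher and 4 lower, against 16% higher and 15.2% lower. Rps29, Rps28 and Rps27l were called lower on heavy polysomes in both diets, Rps27 also with DDC and Rps21 also with CHOW. All 5 encode proteins of 56 to 84 residues and are the only members under 100 residues. Of the longer members, Rps12 (137 residues) and Rps20 (119 residues) also lay below 0 in both diets, without a call. Rps12 had -0.46 with DDC and -0.81 with CHOW, and Rps20 -0.77 with DDC and -0.48 with CHOW. Rps26 (115 residues) and Rps3a1 lay below 0 with CHOW alone (-0.40 and -0.05). Rps29 had 768 and 492 FPKM on heavy and 1366 and 2532 FPKM on light polysomes with DDC (-1.60, adjusted p = 0.00487, limma), and 689 and 611 FPKM on heavy and 1974 and 2387 FPKM on light polysomes with CHOW (-1.74, adjusted p = 0.00196, limma). Rps27l had 163 and 120.3 FPKM on heavy and 252 and 519.6 FPKM on light polysomes with DDC (-1.36, adjusted p = 0.0148, limma), and 268 and 429 FPKM on heavy and 1665 and 1739 FPKM on light polysomes with CHOW (-2.32, adjusted p = 0.000576, limma). For both genes and in both diets the 2 heavy polysome libraries were below the 2 light polysome libraries.

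At the other end with DDC were Rps3, with 442 and 515 FPKM on heavy and 87.9 and 140.3 FPKM on light polysomes (2.09, SE 0.25, adjusted p = 0.000652, limma), and Rps7, with 574 and 543 FPKM on heavy and 95.2 and 219.9 FPKM on light polysomes (1.94, adjusted p = 0.00164, limma). With CHOW they were Fau, with 2614 and 2594 FPKM on heavy and 844 and 886 FPKM on light polysomes (1.59, adjusted p = 0.000715, limma), and Rps10, a head protein, with 1222 and 1072 FPKM on heavy and 452 and 451 FPKM on light polysomes (1.34, adjusted p = 0.00304, limma). The median difference of the 5 members under 100 residues was -0.91 with DDC and -1.02 with CHOW, that of the 18 members of 100 to under 200 residues 1.22 with DDC and 0.77 with CHOW, and that of the 6 members of 200 or more residues 1.82 with DDC and 0.71 with CHOW. Over the 29 members, Spearman's rho between the length of the encoded protein and heavy minus light polysomes was 0.83 with DDC and 0.63 with CHOW, and over all coding genes tested 0.07 in either diet. The points of a diet share the same 4 libraries, and members are not independent replicates. All coding genes under 100 residues had medians of -0.62 (DDC) and -0.69 (CHOW), and all coding genes of 200 residues or more had medians of 0.04 with DDC and 0.01 with CHOW.

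**Figure D5:**
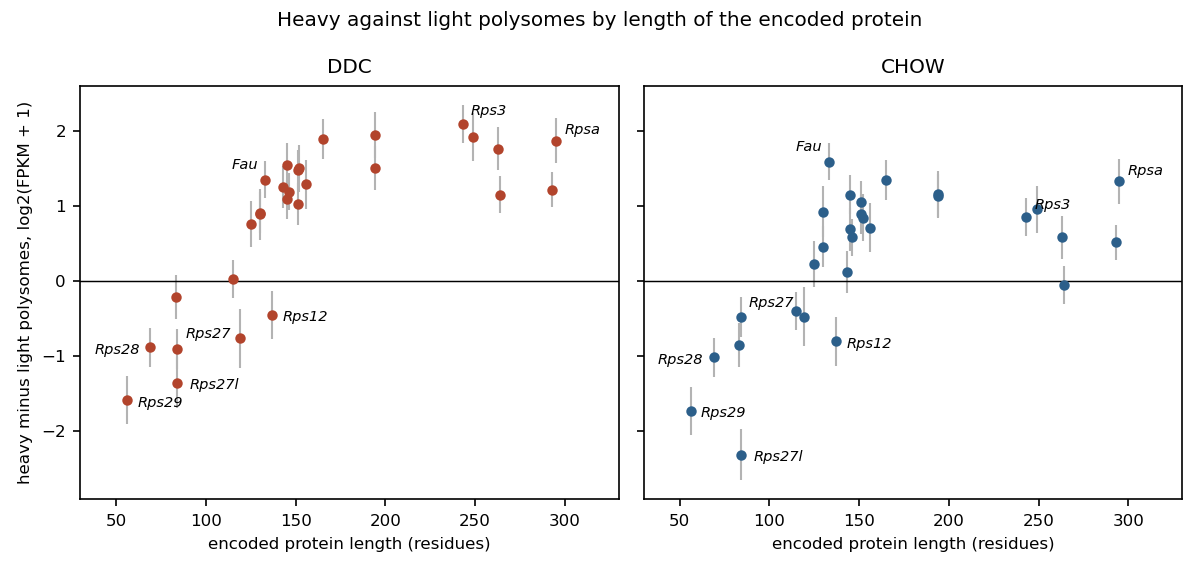
Difference between heavy and light polysomes in log2(FPKM + 1), with SE bars from limma (2 libraries a group), of the 29 members against the length of the encoded protein in residues, for DDC (left) and CHOW (right). The 5 members under 100 residues lie below 0 in both diets, and those of 200 or more residues lie above 0 except Rps3a1 with CHOW (-0.05). Between these lengths, Rps12 and Rps20 lie below 0 in both diets and Rps26 with CHOW.

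The split by size in CHOW depended on scaling for the higher members: with equal totals 1 member was called higher and 8 lower, and with quantile normalization 2 higher and 7 lower. The median over the members in CHOW was 0.58 in the deposited values, -0.09 with equal totals and 0.01 with quantile normalization. With DDC the counts were 14 higher and 6 lower with equal totals and 12 higher and 7 lower with quantile normalization. In CHOW the count of 14 became 6 without either CHOW light polysome library or CHOW heavy polysomes 1, and 0 without the 4 CHOW libraries numbered 1; in DDC it became 13 without those 4.

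Rps27 and Rps27l, whose proteins are both 84 residues long and can take the same place in the subunit, differed in their placement. With CHOW, Rps27l per Rps27 was 1.17 and 0.918 on light polysomes, against 0.132 and 0.133 in monosomes and 0.237 and 0.357 on heavy polysomes, so the paralog reached the level of Rps27 in light polysomes and stayed at a fraction of it elsewhere. With DDC the ratio was 0.328 and 0.456 on light polysomes, 0.250 and 0.333 in monosomes and 0.269 and 0.294 on heavy polysomes. In cytoplasm it was 0.504 and 0.486 with DDC and 0.338 and 0.405 with CHOW. The diets do not overlap in cytoplasm, monosomes and light polysomes, with DDC higher in the first and second of these and lower on light polysomes. Rps27l was also the member with no positive diet difference in heavy polysomes against monosomes (-0.04, SE 0.48, adjusted p = 0.974, limma).

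The deposited values per transcript show 2 further differences between the diets, given as values without a test. Rps10-201, a coding transcript of 522 bases, took 13.8 to 52.9% of the FPKM of Rps10 in the 8 DDC libraries, with the largest shares (34.8 and 52.9%) in cytoplasm, and 0 to 0.448% in the 8 CHOW libraries, where the transcript Rps10-203 (887 bases) held nearly all. Rps2-203, a retained-intron transcript of Rps2, took 14.4 to 40.0% of that gene in 7 DDC libraries and 0.0840% in DDC heavy polysomes 2, and 0 to 1.20% in the CHOW libraries. An estimate of 0 for 1 transcript of a gene can come from how reads were divided between overlapping transcripts. For Rps24, whose alternative 3' coding ends are spliced differently between tissues, the share of Rps24-202 ranged over 25.4 to 32.8% with DDC and 26.9 to 39.8% with CHOW and overlapped. Over all members, transcripts annotated as noncoding held 4.60 to 7.14% of their FPKM with DDC and 3.28 to 4.83% with CHOW.

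Other genes of the pathway were described by lists. Of 49 large subunit protein genes, 39 were called lower with DDC in monosomes and 0 higher (median -1.41). In the diet difference of heavy polysomes against monosomes 18 were called, all higher with DDC (median 1.56). Of all genes tested, 15.9% were called lower and 21% higher in monosomes, and 0.996% higher and 0.902% lower in the diet difference. The lowest p values of the large subunit genes in the diet difference were those of Rpl23a (2.12), Rpl22 (1.81) and Rpl14 (2.28). The summed FPKM of the small over that of the large subunit genes did not overlap between the diets in any pool. In monosomes it was 0.660 and 0.586 with DDC, against 0.697 and 0.691 with CHOW. On light polysomes it was 0.681 and 0.660 with DDC, against 0.702 and 0.710 with CHOW. On heavy polysomes, where DDC was higher, it was 0.610 and 0.649 with DDC, against 0.596 and 0.599 with CHOW. In cytoplasm it was 0.633 and 0.649 with DDC, against 0.660 and 0.662 with CHOW. Of 21 other TOP messages, 13 were called lower in monosomes, among them Naca (-2.70) of the nascent-chain complex and Tpt1 (-1.88), and 1 higher, Vim (3.31), which is also a mesenchymal marker. In the diet difference 4 were called, all higher with DDC, among them Naca (2.24), Tpt1 (2.25) and the elongation factor Eef1b2 (1.86). Of 21 tested genes of the mTOR and LARP1 pathway, 2 were called higher (9.52%) and 4 lower (19%) in monosomes, against 21% and 15.9% of all genes tested. In the diet difference 0 were called by limma, and 3 had an unadjusted p under 0.05, as had 2378 of 11746 genes tested. The lowest p in monosomes were those of Deptor (-1.82), Cnbp (-1.69) and Larp4 (-0.89), and the 2 called higher, named after their values were seen, were Tsc2 (0.92), an inhibitor of mTOR signalling, and Eif4ebp1 (0.85), an mTOR substrate that holds back cap-dependent initiation. Deptor is an inhibitor of mTOR, Cnbp an RNA-binding protein and Larp4 a relative of LARP1. Larp1 itself had 7.41 and 9.18 FPKM in DDC monosomes and 10.2 and 10.2 FPKM in CHOW monosomes. Of 36 assembly factors of the small subunit, 4 were called higher and 4 lower in monosomes (11.1% each, against the same 21% and 15.9% of all genes), with a median of -0.07. In the diet difference 0 were called by limma (median -0.03), and 4 had an unadjusted p under 0.05, against the same 2378 of 11746 genes. Of the 95 Rps pseudogenes listed by symbol, 19 were tested. In monosomes 10 were called lower and 0 higher, against 15.9% and 21% of all genes. In the diet difference of heavy polysomes against monosomes 5 were called higher and 0 lower (median 1.31), against 0.996% and 0.902% of all genes. The 95 pseudogenes summed to 415 and 326 FPKM in DDC monosomes and 785 and 802 FPKM in CHOW monosomes. Reads shared with the members can be in either count.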

How the data were processed

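Polyadenylated RNA of hepatocytes was sequenced from stranded mRNA libraries, per the labels' protocols, in 16 libraries: 2 diets, 4 RNA pools and 2 libraries a group. Tools named by the submitters' processing notes are Cuffnorm, STAR 2.4.2a, Picard 1.119, bcl2fastq 2.17.1.14 and Trimmomatic; the options of Cuffnorm are not given in the sources used here. The deposited table is named for counts but holds Cuffnorm's FPKM of each transcript; values are not whole, sequenced depth is unknown, and the number of libraries limits the precision. From the 117592 deposited rows, 25 duplicate rows of coding regions at 0 were left out, 116728 transcripts (99.3%) were matched to GENCODE M21 on GRCm38, and the 839 not matched held at most 0.509% of a library's FPKM.

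FPKM were summed per gene. The 11790 genes at 1 FPKM or more in 2 or more libraries were fitted as log2(FPKM + 1), which understates changes of low genes, with limma 3.58.1 in R 4.3.3: 8 group means, a mean-dependent trend, 8 residual and 3.905 prior degrees of freedom. A gene at 0 in both libraries of a group but at 100 FPKM or more elsewhere was missing in that group (49 genes, no member). Adjusted p-values are Benjamini-Hochberg over all genes tested in each of 10 comparisons; comparisons share libraries, and no p was adjusted over the members alone. The fit was tested on simulated data with known changes in the DDC monosome group. Residuals were drawn independently for each library, so that test does not cover the correlation between pools given below.

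The rule for the members uses names alone, but the group of genes and the lists were chosen with earlier results of these data known. Members given in full are those called in a diet comparison (the 4 largest where more than 8 were called), the 2 at each end of a fraction comparison, and Rps27, Rps27l, Rps27a, Fau, Rps6 and Rps24. The names of preparations pair fractions within a diet, not diets: differences between replicates correlated at 0.360 to 0.760 for pairs of CHOW pools, 0.309 to 0.375 for pairs of DDC fractions, -0.051 to 0.167 for a DDC fraction with DDC cytoplasm, and -0.099 to 0.074 across the diets. The fit reported had no block. Alternatives were a pseudocount of 0.1, no filter, equal totals, quantile normalization, the replicate block, single zeros as missing, each library left out, the 4 CHOW libraries numbered 1 left out and, chosen after seeing the data, all 34 genes of the symbol pattern. Start sequences are from RefSeq (GRCm38.p6) and were matched by symbol; Rps14 and members without an entry are named only.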

Additional observations from a re-analysis of the deposited data

Results flagged for a closer look

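The diet difference in heavy polysomes against monosomes was tested as an interaction with limma, and 12 members passed a Benjamini-Hochberg adjusted p of 0.05. In 28 of 29 members, these 12 among them, both DDC ratios were above both CHOW ratios. The same held for 21.7% of the tested genes above 0 in all of these libraries. The ratios come from libraries that the test used, so they add no support to it. On the log2(FPKM + 1) scale the differences of members of the body and platform were 2.70 for Rps3a1, 2.35 for Rps23, 2.18 for Rps21, 2.01 for Rps4x, 2.01 for Rps6, 1.97 for Rps24, 1.93 for Rps7 and 1.55 for Rps26. Those of members of the head were 1.98 for Rps19, 1.97 for Rps25, 1.93 for Rps16 and 1.57 for Rps3. No group had the 4 samples that a search for outlying samples needs.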

How the results depend on the processing

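Of 124 called results of single members, 0 reversed in any alternative; 4 lost their call with a pseudocount of 0.1, 21 without a filter, 33 with equal totals, 40 with quantile normalization, 2 with single zeros missing, 0 with the replicate block and 85 without the 4 CHOW libraries numbered 1. The count of called members was 3 in cytoplasm (5 with quantile normalization), 5 on light polysomes (3 without a filter), 4 on heavy polysomes (16 with equal totals, 15 with quantile normalization), 14 for heavy against light polysomes in CHOW (9 with either scaling), 14 for heavy polysomes against monosomes in DDC (7 with equal totals, 8 with quantile normalization) and 12 for the diet difference of heavy polysomes against monosomes (7 without a filter, 22 with equal totals, 19 with the replicate block, which pairs the fractions of a preparation and moved no other count by over 1.5 times). Without the 4 CHOW libraries numbered 1 the counts were 0 in cytoplasm, 13 in monosomes, 1 on light and 0 on heavy polysomes, 3 and 9 for heavy polysomes against monosomes in DDC and CHOW, 13 and 0 for heavy against light polysomes in DDC and CHOW, and 0 for the diet difference; fewer libraries were fitted.

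Leaving out 1 library at a time gave 0 to 4 called members in cytoplasm, 17 to 28 in monosomes, 1 to 10 on light and 1 to 9 on heavy polysomes, 5 to 16 and 15 to 23 for heavy polysomes against monosomes in DDC and CHOW, 19 to 23 and 6 to 18 for heavy against light polysomes in DDC and CHOW, and 1 to 16 and 0 to 0 for the diet differences of heavy polysomes against monosomes and against cytoplasm. All 34 genes of the symbol pattern gave 31 called lower in monosomes. The cause of these changes was not tested. With 2 libraries a group and depth unknown, smaller differences were not detectable here.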
